A study of Mus musculus with 8 samples.

Results

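The genes described are 8 members of the S100 family, S100a1, S100a4, S100a6, S100a10, S100a11, S100a13, S100a16 and S100b, chosen by name as S100 genes of mesenchymal cells and each read on the probe set of highest mean, and they were 8 of 19938 genes measured. RNA levels came from 8 primary osteosarcomas, malignant tumours of bone-forming cells, of C57Bl6 mice, with 1 array for each tumour. In the 4 shRNA OS tumours p53 was targeted by the transgenic hairpin P53.1224, and the 4 Cre:lox OS tumours carried P53fl/fl, 2 floxed alleles of p53. In each model 3 tumours were Rbfl/+, with 1 floxed Rb allele, and 1 was Rb+/+. Of the shRNA OS tumours, replicates 1, 2 and 3 came from the tibia and replicate 4 from the humerus, and replicate 2 was Rb+/+. Of the Cre:lox OS tumours, replicate 1 came from the scapula, replicate 2 from the humerus and replicates 3 and 4 from the tibia, and replicate 1 was Rb+/+. The series title calls the hairpin lineage-restricted, while the promoter that drives it or the Cre, and the ages of the mice, are not given in the labels used here. All 8 tumours therefore have p53 targeted, and no tumour with intact p53 and no normal bone was compared.

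S100 proteins are small calcium-binding proteins with paired EF-hand motifs that mostly work as dimers. When they bind calcium they expose a surface that docks on other proteins, such as annexins, myosin and cytoskeletal regulators. S100a4, S100a6, S100a10 and S100a11 are typical of fibroblasts and other mesenchymal cells. S100a1 is best known from muscle and cartilage, and S100b from glia, cartilage and fat.

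S100a4 and S100a6 lie close together in the S100 gene cluster of chromosome 3, with S100a5 between them. Across tumours each was among the 2 genes closest in pattern to the other, in a comparison not made for every member. Their start regions are shown for that reason, 250 bases before to 50 after the annotated start, from RefSeq (build GRCm38.p6). The S100a4 window is chr3:90603520-90603819 and the S100a6 window chr3:90612644-90612943, both on the plus strand. Capitals mark matches, on either strand, to any of 5 motifs that were searched: the core promoter box TATAAA, the box named CCAAT, the GC box written as GGGCGG, the AP-1 site written as TGANTCA and the hypoxia response core written as ACGTG.
S100a4: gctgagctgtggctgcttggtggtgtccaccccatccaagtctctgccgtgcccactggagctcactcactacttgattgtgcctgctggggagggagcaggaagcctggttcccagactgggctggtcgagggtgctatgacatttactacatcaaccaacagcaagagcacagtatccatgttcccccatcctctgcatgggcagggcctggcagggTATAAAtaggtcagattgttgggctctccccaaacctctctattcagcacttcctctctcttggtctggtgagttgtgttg
S100a6: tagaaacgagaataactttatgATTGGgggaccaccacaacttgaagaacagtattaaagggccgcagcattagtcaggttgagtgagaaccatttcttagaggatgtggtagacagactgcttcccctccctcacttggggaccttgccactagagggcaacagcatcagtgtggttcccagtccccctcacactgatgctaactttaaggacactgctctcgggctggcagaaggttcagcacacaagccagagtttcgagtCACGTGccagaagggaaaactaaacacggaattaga
The S100a4 window held 1 match, a TATAAA whose first base lies at -31 from the start, a motif held by 13.6% of 32851 promoter windows of the same length. The S100a6 window held no TATAAA. It held 1 CCAAT match on the opposite strand (37.4% of windows) and CACGTG, which reads as ACGTG on both strands (19.6% of windows). The AP-1 letters were in neither window, against 7.81% of all windows. The only AP-1 matches among the members were 2 in the S100a11 window and 1 in the second of the S100a16 windows. RefSeq windows were given for 7 of the 8 members, all but S100a10.

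S100a13 and S100a1 share their start region on opposite strands. The S100a13 window, chr3:90514185-90514484 on the plus strand, is shown with the 204 bases it shares with the S100a1 window in capitals, since these genes could be compared as neighbours with 1 common start region.
S100a13: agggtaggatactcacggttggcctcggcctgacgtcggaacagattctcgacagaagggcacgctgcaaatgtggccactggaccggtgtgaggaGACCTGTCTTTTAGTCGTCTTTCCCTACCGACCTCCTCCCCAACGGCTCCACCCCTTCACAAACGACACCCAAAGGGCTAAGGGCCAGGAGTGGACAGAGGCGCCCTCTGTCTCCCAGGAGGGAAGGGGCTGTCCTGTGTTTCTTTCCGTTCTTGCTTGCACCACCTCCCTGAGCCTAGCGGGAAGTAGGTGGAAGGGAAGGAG
Neither window held any of the 5 motifs.

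Facts of the arrays bear on every value below. The deposited values are log2 expression values made with RMA (robust multi-array average), and the array medians ran from 7.13 to 7.23. One array was unlike the others: for shRNA OS replicate 2 the average correlation with the remaining arrays was 0.941, against 0.961 to 0.968 for the other 7 tumours. The S100a4 and S100a6 results are also given without it. Of 9 osteoblast markers 6 were measured, none with a mean below the array medians, and their mean level was 11.92 to 12.18 in shRNA OS and 11.37 to 11.95 in Cre:lox OS. Rb1 was between 9.10 and 9.71 in Rbfl/+ tumours and 9.34 and 9.54 in the Rb+/+ tumours, and these values check no label, since the position of its probes relative to the loxP sites is not known here. In such whole-tumour RNA, fewer cells of a type and less RNA per cell cannot be told apart.

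S100a4, also called metastasin, binds non-muscle myosin and marks fibroblasts and some myeloid cells. Its log2 values were 8.58, 9.20, 8.17 and 8.87 in shRNA OS replicates 1 to 4, against 9.61, 10.01, 10.64 and 10.04 in Cre:lox OS replicates 1 to 4. All 4 shRNA OS tumours lay below all 4 Cre:lox OS tumours. The means were 8.70 ± 0.44 in shRNA OS and 10.07 ± 0.43 in Cre:lox OS (SD, n = 4 each), a difference of -1.37 (SE 0.27), or 2.59-fold lower. S100a6, or calcyclin, binds the calcyclin-binding protein and annexins and is abundant in dividing fibroblasts. It stood at 8.61, 9.72, 8.25 and 9.65 in shRNA OS, against 9.46, 9.99, 10.73 and 10.64 in Cre:lox OS. The same tumours, shRNA OS replicates 3 and 1, were lowest for both genes, and Cre:lox OS replicate 3 was highest for both, but for S100a6 shRNA OS replicates 2 and 4 lay above Cre:lox OS replicate 1. The S100a6 means were 9.05 ± 0.74 in shRNA OS and 10.20 ± 0.59 in Cre:lox OS, a difference of -1.15 (SE 0.39), or 2.22-fold lower. Without shRNA OS replicate 2 the differences were -1.54 for S100a4 and -1.37 for S100a6.

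**Figure D1:**
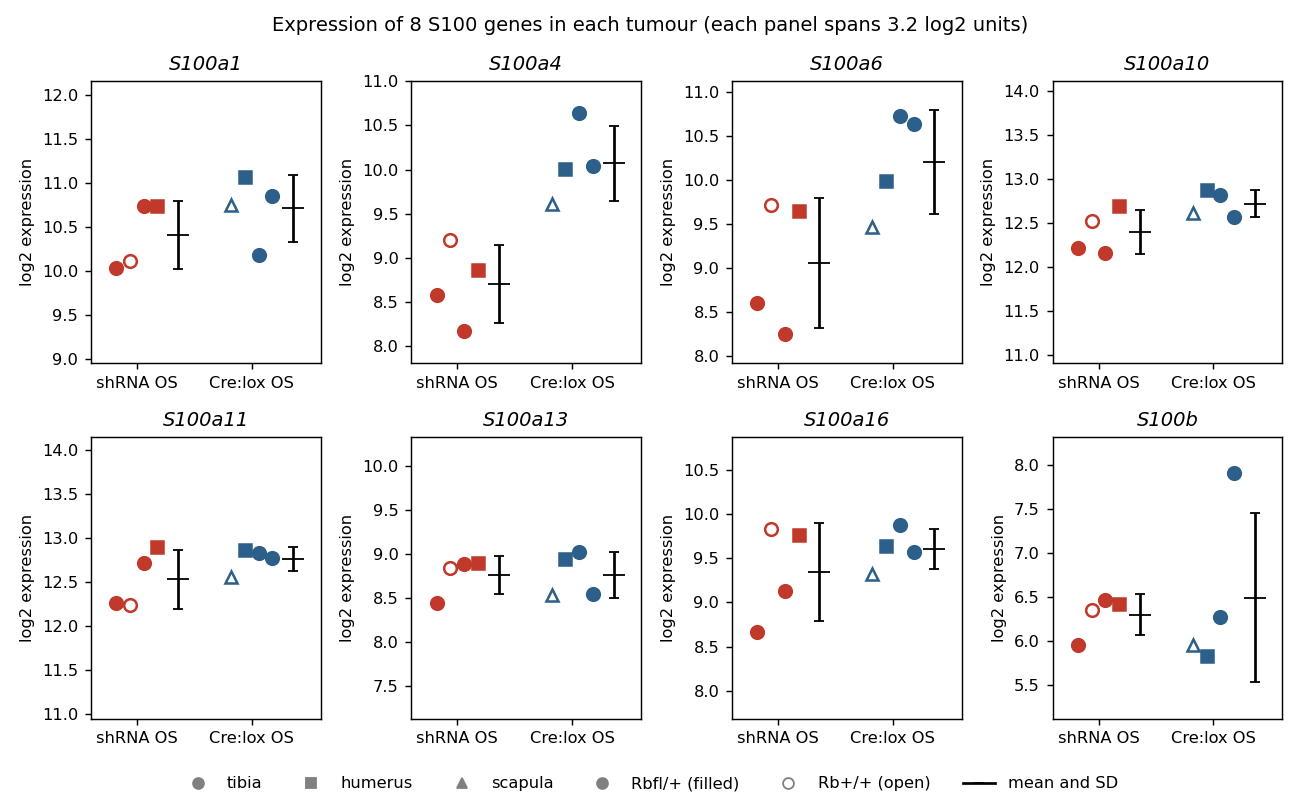
Log2 expression of each of the 8 S100 genes, 1 point per tumour, with shRNA OS left and Cre:lox OS right in each panel. Shapes give the bone, filled points are Rbfl/+ and open points Rb+/+, and bars give mean and SD (n = 4). S100a4 is the only panel in which the models do not overlap, and 1 Cre:lox OS tumour stands high for S100b (7.90).

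The differences between the models were known when the genes were chosen, so they are given as a description, without a test. Of the 8 members 7 had a lower mean in shRNA OS, where 48.1% of all 19938 genes had a lower mean. The median difference of the members was -0.28, against 0.01 for all genes. Across all genes limma's test with Benjamini-Hochberg adjustment called 4 between the models (0.0201%), 1 of them lower in shRNA OS (0.00502%), and none of the 4 is a member. The models did not overlap for 1 member, S100a4, and for 5.44% of all genes, or 3.44% with the lower values in shRNA OS.

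S100a10 and S100a11 pair with annexins at membranes. S100a10, which has lost calcium binding and forms a complex with annexin A2, was 12.22, 12.52, 12.16 and 12.69 in shRNA OS, against 12.61, 12.88, 12.82 and 12.57 in Cre:lox OS. The 3 lowest values were tibial shRNA OS tumours, and shRNA OS replicate 4, from the humerus, lay within the Cre:lox OS range. The difference was -0.32 (SE 0.16). S100a11, a partner of annexin A1, was 12.26, 12.24, 12.71 and 12.90 in shRNA OS, against 12.56, 12.87, 12.82 and 12.77 in Cre:lox OS. Its lowest and its highest tumour were both shRNA OS, and the means differed by -0.23 (SE 0.18). Without shRNA OS replicate 1, 2 or 4 the difference was -0.14, -0.13 or -0.35. Its 2 probe sets, with means of 12.64 and 12.61, differed by at most 0.11 in any tumour, and the gene table also lists a pseudogene, S100a11-ps, whose part in these values is uncertain.

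S100a16, a widely expressed member, was 8.66, 9.84, 9.13 and 9.76 in shRNA OS, against 9.32, 9.64, 9.87 and 9.57 in Cre:lox OS. In shRNA OS replicates 1 and 3 were low and replicates 2 and 4 lay within the Cre:lox OS range, and the difference was -0.25 (SE 0.26). It was -0.03 without shRNA OS replicate 1, -0.42 without replicate 2, -0.39 without replicate 4 and -0.16 without Cre:lox OS replicate 3. S100a6 showed the same split among the shRNA OS tumours. S100a1 was 10.04, 10.11, 10.73 and 10.74 in shRNA OS, against 10.75, 11.07, 10.18 and 10.85 in Cre:lox OS, a difference of -0.31 (SE 0.24). It was -0.18 without shRNA OS replicate 1, and among the Cre:lox OS tumours removing replicate 2 gave -0.19 and removing replicate 3 gave -0.48. Cre:lox OS replicate 3, highest for S100a4 and S100a6, was lowest of its model for S100a1. S100a13, which helps to release FGF1 from cells, was 8.44, 8.84, 8.88 and 8.89 in shRNA OS, against 8.53, 8.94, 9.02 and 8.54 in Cre:lox OS. Its means were 8.76 ± 0.21 in shRNA OS and 8.76 ± 0.26 in Cre:lox OS, a difference of 0.0024 (SE 0.17). Whether S100a13 differs in this from S100a1, with which it shares its start region, was not tested, and the errors of both are wide. The tumours were ordered differently, as Cre:lox OS replicate 3 was highest for S100a13 and lowest of its model for S100a1.

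S100b was 5.96, 6.35, 6.47 and 6.42 in shRNA OS, against 5.96, 5.83, 6.27 and 7.90 in Cre:lox OS. In 7 tumours it lay below the array medians, and Cre:lox OS replicate 4 stood alone above them. The difference between the models was -0.19 with that tumour and 0.28 without it, and it was -0.08, -0.37 or -0.41 without shRNA OS replicate 1, Cre:lox OS replicate 1 or Cre:lox OS replicate 2. In Cre:lox OS replicate 4 the mean level of 7 measured Schwann cell and melanocyte markers was 6.23 and that of 9 chondrocyte markers 7.15, against 6.21 to 6.54 and 7.32 to 8.01 in the other 7 tumours. Its 7 adipocyte markers averaged 7.29, against 7.30 to 8.01. Of these markers 6 of 7 Schwann cell and melanocyte, 4 of 7 adipocyte and 3 of 9 chondrocyte genes had means below the array medians. The same tumour had the highest mean of the macrophage (10.997), fibroblast (10.40) and neutrophil (6.39) markers. Their part in the S100b value was not tested.

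**Figure D2:**
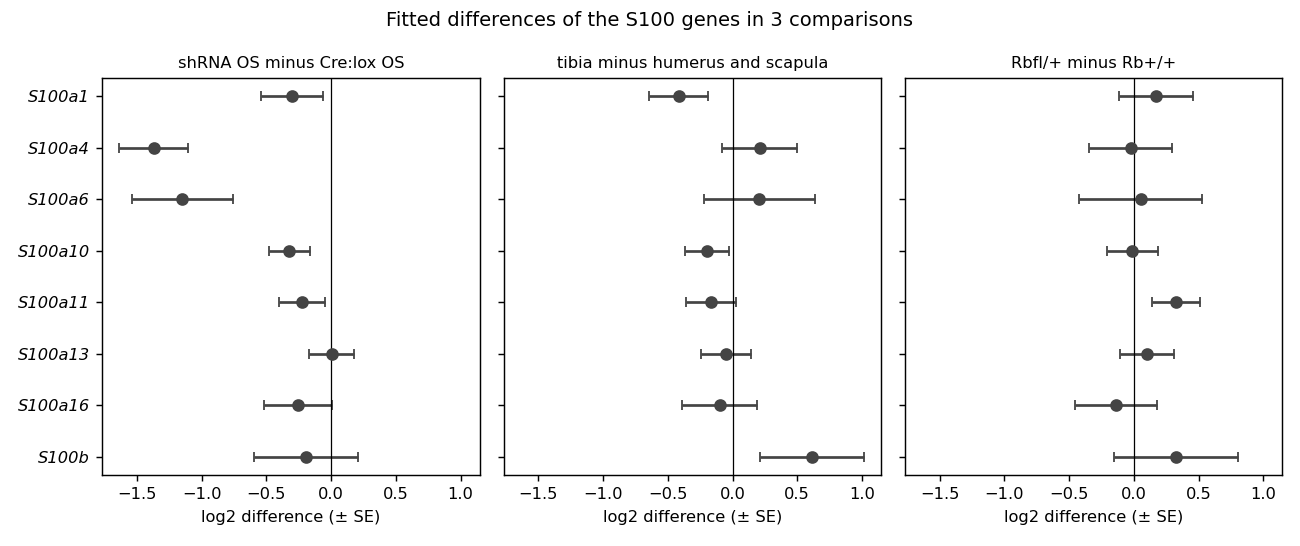
Fitted log2 differences (points) with SE (bars) of the 8 S100 genes for shRNA OS minus Cre:lox OS, for tibia minus humerus and scapula, and for Rbfl/+ minus Rb+/+. S100a4 (-1.37) and S100a6 (-1.15) lie farthest from 0, both between the models, and the differences by site and by Rb genotype lie between -0.42 and 0.61.

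The difference between the models in S100a4 and S100a6 was larger among Rbfl/+ and among tibial tumours than among all tumours. Among the 6 Rbfl/+ tumours it was -1.69 for S100a4 and -1.62 for S100a6, and among the 5 tibial tumours -1.69 and -1.83. With the site as a covariate it was -1.42 and -1.20. Leaving out each tumour in turn gave -1.54 to -1.18 for S100a4 and -1.40 to -0.88 for S100a6. Between the Rb+/+ tumours S100a4 was 9.20 in shRNA OS against 9.61 in Cre:lox OS, while S100a6 was higher in shRNA OS, 9.72 against 9.46. Outside the tibia S100a4 was 8.87 in shRNA OS against 9.61 and 10.01 in Cre:lox OS. There S100a6 was 9.65 against 9.46 and 9.99, so the models overlapped. Each model had 1 Rb+/+ tumour, and outside the tibia there were 1 shRNA OS and 2 Cre:lox OS tumours. The Rb+/+ tumour of shRNA OS is replicate 2, whose array stood apart. Such strata are too small to show whether the difference depends on genotype or bone. It was also known when the genes were chosen.

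The comparison of bones set 5 tibial tumours against 3 of the humerus and scapula, in a fit that included the model. Limma called 0 of 19938 genes (0%), with 1125 at an unadjusted p under 0.05 (5.64%), so 0 of 8 members were called. The groups were free of overlap for 0 of 8 members and for 2.6% of all genes. The largest member differences were 0.61 (SE 0.40) for S100b and -0.42 (SE 0.23) for S100a1, with adjusted p of 0.979 and 0.952. S100b was 5.96, 6.35, 6.47, 6.27 and 7.90 in tibial tumours, against 6.42, 5.96 and 5.83 in the others, so the groups overlapped. Without Cre:lox OS replicate 4 its difference was 0.09. S100a1 averaged 10.38 ± 0.38 in tibial tumours (SD, n = 5) and 10.85 ± 0.19 in the others (SD, n = 3), again with overlap. The other 6 members differed by between -0.20 and 0.21 in this fit. Within the models the site difference of S100a6 was -0.79 in shRNA OS and 0.96 in Cre:lox OS, and that of S100a4 was -0.22 in shRNA OS and 0.53 in Cre:lox OS. Limma's interaction test, chosen after seeing the data, gave -1.74 (SE 0.68) for S100a6 and -0.75 (SE 0.56) for S100a4, both with an adjusted p of 1, and the humerus in shRNA OS is 1 tumour.

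The comparison of Rb genotypes set 6 Rbfl/+ against 2 Rb+/+ tumours in a fit of the same kind. Limma called 0 of 19938 genes (0%), with 943 at an unadjusted p under 0.05 (4.73%), and 0 of 8 members. The genotypes did not overlap for 0 of 8 members and for 4.63% of all genes. S100a11 averaged 12.72 ± 0.24 in Rbfl/+ and 12.40 ± 0.23 in Rb+/+ tumours, with a difference of 0.32 (SE 0.19) and adjusted p = 0.836. S100b also differed by 0.32 (SE 0.48), and the remaining 6 members by between -0.14 and 0.17, with adjusted p up to 0.992. With 2 Rb+/+ tumours these differences have wide errors, and those of S100a4 (-0.02, SE 0.32) and S100a6 (0.05, SE 0.47) do not show that the genotypes act alike.

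Among all genes the pattern of S100a4 and S100a6 was close. Each gene was centred on its mean over the 8 tumours, and likeness was the root mean square difference between such values, in log2 units. S100a6 was 0.32 from S100a4, second closest of all genes to S100a4, and S100a4 was the closest of all to S100a6, where the median distance of other genes was 0.81 from S100a4 and 0.85 from S100a6. Values were not scaled, so a gene that varies little lies about as far from a member as that member's own spread. The SD over the tumours was 0.84 for S100a4 and 0.87 for S100a6, so the median distances say little about closeness. When S100a4 and S100a6 were chosen their differences between the models were known, and a shared large difference brings genes closer. The distances share the 8 arrays and are given without a test. The nearest genes outside the members to S100a4 were Gda, which encodes guanine deaminase (0.31), Map1a, a microtubule-binding protein (0.32), and Ptgfrn, a regulator of the prostaglandin F2 alpha receptor (0.38). Gda was 7.03, 6.92, 6.33 and 6.62 in shRNA OS, all below the array medians, against 8.002, 7.66, 8.50 and 8.40 in Cre:lox OS. Like S100a4, it did not overlap, which its choice as the gene nearest to S100a4 favours. The nearest to S100a6 were the platelet chemokine gene Ppbp (0.46), Mab21l1 (0.47) and the dehydrogenase gene Dhrs9 (0.47). Nearest to S100b were Galnt13, a glycosyltransferase (0.19), Mgst2, a glutathione transferase (0.21), and Vcam1, a cell adhesion molecule (0.21). Since S100b stood out in Cre:lox OS replicate 4, the choice of its nearest genes favours genes that are high in that tumour. Each of these 3 was highest there, with Vcam1 at 10.41 in that tumour and at 8.66 to 9.09 in the other 7. Galnt13 lay below the array medians in all 8 tumours, and Mgst2 in the other 7. The other 5 members had an SD over the tumours under 0.5 and no nearest genes were sought for them.

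**Figure D3:**
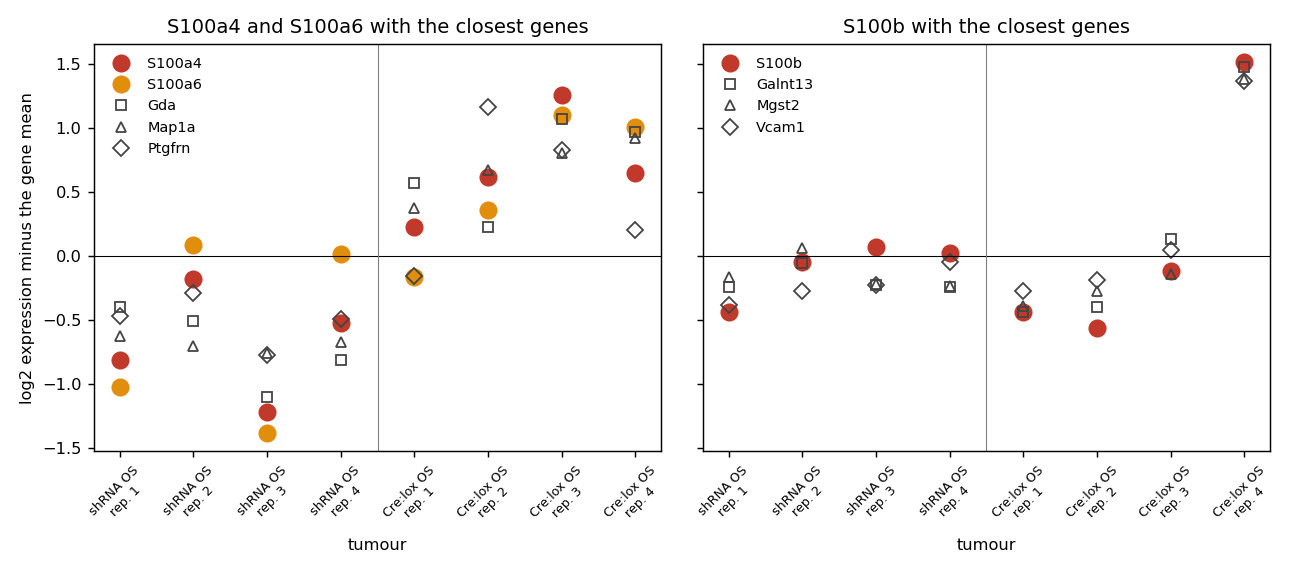
Log2 expression minus the gene's mean over the 8 tumours, with the 4 shRNA OS tumours left of the line and the 4 Cre:lox OS tumours right. Filled points are S100a4 and S100a6 (left panel) and S100b (right panel), and open points are the 3 closest genes to S100a4 or S100b outside the members. S100a4 and S100a6 are lowest in shRNA OS replicate 3, and all 4 genes of the right panel are highest in Cre:lox OS replicate 4. The open points were chosen for likeness, so a shared high tumour is favoured by that choice.

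Genes next to S100a4 and S100a6 had smaller differences, at levels below the array medians. Of the members 7 are on chromosome 3 and S100b is on chromosome 10. In gene order, S100a5 lies between S100a4 and S100a6 and differed by -0.14, at a level below the array medians. S100a3 and S100a2, before S100a4, differed by -0.06 and -0.19, and S100a7a and S100a8, after S100a6, by 0.15 and 0.11 (S100a2 was named after its values were seen). These neighbours also had means below the array medians, while S100a4 and S100a6 averaged 9.39 and 9.63. The small differences of such dim genes do not show whether the stretch as a whole differed between the models. The 48 measured genes between S100a9 and S100a11, among them the Sprr2 genes of the skin barrier, had higher means in shRNA OS in 45 cases, by 0.15 at the median, and 43 of them lay below the array medians. Around S100b on chromosome 10, the mean was higher in shRNA OS for 5 of the 10 measured genes before it and 6 of the 10 after it.

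**Figure D4:**
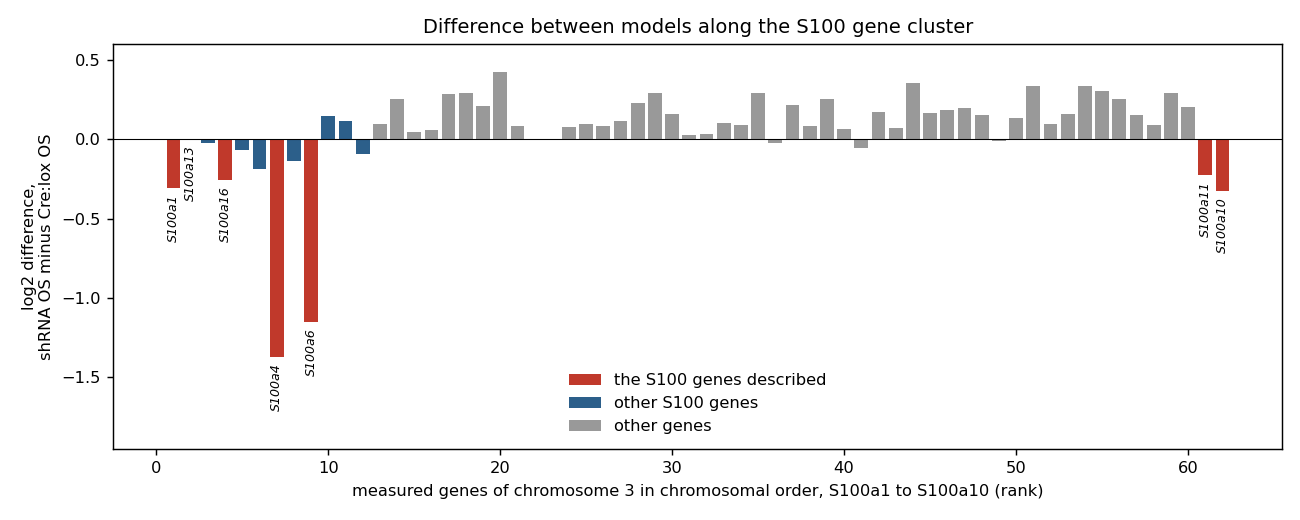
Log2 difference, shRNA OS minus Cre:lox OS, of the 62 measured genes of chromosome 3 from S100a1 to S100a10, in chromosomal order with 1 bar per gene. S100a4 (-1.37) and S100a6 (-1.15) have the lowest bars. The genes nearest to them, S100a2, S100a3, S100a5, S100a7a and S100a8, have means below the array medians. The lowest bar between S100a9 and S100a11 is -0.05.

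The other S100 genes, several of which belong to granulocytes, skin and other epithelia, were dim. All 8 of the list (S100a3, S100a5, S100a7a, S100a8, S100a9, S100a14, S100g and S100z) had means below the array medians, with values from 5.14 to 7.33 and an SD over the tumours of 0.12 to 0.32. Their differences between the models ran from -0.14 to 0.15, and none passed limma's test, where 0.0201% of all genes did. S100a8, a subunit of the neutrophil protein calprotectin, was 5.94, 6.33, 6.14 and 5.83 in shRNA OS, against 5.78, 5.75, 5.83 and 6.42 in Cre:lox OS. S100a9, its partner, stayed between 6.29 and 6.66 in all 8 tumours. All 10 neutrophil markers, S100a8 and S100a9 among them, had means below the array medians.

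Genes for proteins that S100 proteins bind were compared next. By limma's test 0 of 20 measured partners and receptors passed in either direction, where 0.0201% of all genes did. With so few genes called anywhere, that count does not set the list apart. The list was chosen with earlier results known, and Plat and Ndrg1 were named for their large differences, so these values are descriptions. In shRNA OS 14 had a lower and 6 a higher mean (70% lower, against 48.1% of all genes), with a median difference of -0.12, against 0.01 for all genes. Anxa1, which encodes annexin A1, the partner of S100a11, was 10.31, 9.10, 9.95 and 9.86 in shRNA OS, against 11.12, 11.05, 10.83 and 11.54 in Cre:lox OS. The models did not overlap, and the difference was -1.33 (SE 0.26, limma adjusted p = 0.1503). Anxa2, for the partner of S100a10, was 11.26, 11.06, 11.31 and 11.62 in shRNA OS, against 11.81, 12.25, 11.95 and 11.76 in Cre:lox OS. It did not overlap either, with a difference of -0.63 (SE 0.17, limma adjusted p = 0.248), and these 2 of 20 (10%) were the partners free of overlap, against 5.44% of all genes. Ahnak, a giant scaffold that binds the annexin A2 and S100a10 complex, differed by -0.64 (SE 0.25) and Plat, the tissue plasminogen activator whose product S100a10 binds, by -0.98 (SE 0.38), with adjusted p of 0.451 and 0.439. Differences were small for Myh9, the heavy chain of the myosin that S100a4 binds (-0.25), for Cacybp, the binding protein of S100a6 (0.04), and for the S100 receptor gene Ager (0.02). Fgf1, whose release S100a13 assists, differed by 0.28 and Ndrg1, a stress-responsive gene, by 0.68 (SE 0.52).

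Markers of other cells known to express S100 genes were also measured. None of the genes on these lists passed limma's test between the models, where 0.0201% of all genes did. Of all genes 48.1% had a lower mean in shRNA OS. The mean level of 10 macrophage markers was 9.12 to 10.68 in shRNA OS and 9.78 to 10.997 in Cre:lox OS, and that of 10 fibroblast markers was 8.81 to 9.79 in shRNA OS and 9.36 to 10.40 in Cre:lox OS. All 10 macrophage markers and 7 of the 10 fibroblast markers had lower means in shRNA OS. The list means overlapped between the models. Of the single fibroblast markers, Col3a1 (8.22 to 9.85 in shRNA OS, against 9.98 to 11.60 in Cre:lox OS) did not overlap. Nor did Fbln1 (7.49 to 8.11 in shRNA OS, against 8.86 to 10.40 in Cre:lox OS). They were 2 of 10 fibroblast markers (20%), against 0 of 10 macrophage markers and 5.44% of all genes. Another 3 of the 10 fibroblast markers had higher means in shRNA OS. The largest such difference was that of Fap (0.93), at 9.47 to 10.96 in shRNA OS, against 8.77 to 10.18 in Cre:lox OS. Fbln1 and Fap were named after their values were seen. Cre:lox OS replicates 3 and 4 had the highest macrophage means (10.91 and 10.997), the highest fibroblast means (10.16 and 10.40) and the highest values of S100a4 (10.64 and 10.04) and S100a6 (10.73 and 10.64). In shRNA OS replicate 1 the macrophage mean was 10.68, above that of Cre:lox OS replicates 1 and 2 (9.78 and 10.07), and S100a4 was 8.58. In shRNA OS replicate 3 the fibroblast mean was 9.79, also above that of Cre:lox OS replicates 1 and 2 (9.67 and 9.36). That tumour was the lowest of all for S100a4 (8.17) and S100a6 (8.25). The part of macrophages and fibroblasts in the S100a4 and S100a6 differences was not tested. Skeletal muscle markers, of a tissue rich in S100a1, averaged 7.42 to 10.60 in shRNA OS and 7.89 to 10.36 in Cre:lox OS, and all 10 had lower means in shRNA OS. The 3 tumours with the highest muscle scores, shRNA OS replicate 3 and Cre:lox OS replicates 1 and 3, had S100a1 values of 10.73, 10.75 and 10.18. Endothelial markers were 9.22 to 9.68 in shRNA OS and 8.86 to 9.73 in Cre:lox OS, and epidermal markers 6.23 to 6.48 and 6.37 to 6.47. The markers of largest difference in each list were Dmp1 (1.15, osteoblast), Col3a1 (-1.89, fibroblast), Acan (-1.49, chondrocyte), Lpl (-0.33, adipocyte), Mbp (-0.27, Schwann cell) and Myl1 (-1.82, muscle). For macrophage, neutrophil, endothelial and epidermal markers they were Itgam (-1.03), Mmp8 (-0.51), Tek (1.01) and Trp63 (-0.61). These single genes do not stand for their lists. Means were higher in shRNA OS for 4 of 6 osteoblast, 6 of 9 chondrocyte, 3 of 7 adipocyte and 4 of 7 Schwann cell and melanocyte markers. Means were also higher there for 6 of 10 neutrophil, 6 of 8 endothelial and 4 of 8 epidermal markers.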

How the data were processed

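RNA of 8 tumours was measured on 1-colour biotin-labelled arrays. The deposited log2 values came from RMA, run by the authors. The submitters' processing notes list RMA and mm9, while its version and filters were not found there. Each array held 35556 values between 2.53 and 14.57, and no intensity or detection call was used, so a low value is named only as below the array medians. The interquartile range of the arrays ran from 2.59 to 3.19, which can enter every comparison. The number of arrays limits the precision.

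Gene names came from GEO's platform annotation. Of 35556 probe sets, 21789 had 1 symbol, 1621 several and 12146 none. Only those with 1 symbol were used, and a gene was read on the probe set of highest mean, which gave 19938 genes. Of the 21789, 21698 were found by ID in RefSeq's genes (GRCm38.p6), used for order alone.

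Groups came from the labelled model, site and Rb genotype. Replicates are separately numbered tumours, numbered here in accession order, and pair no samples. Neither batch nor sex was taken from the labels, which list neither. Tests used limma 3.58.1 (lmFit, eBayes) in R 4.3.3 over all genes and called adjusted p (Benjamini-Hochberg) under 0.05, without a covariate between models and with the model as a covariate for site and Rb genotype. The fit was tested on simulated data. Members, lists and markers were chosen with earlier results of these data known. The rule named the members, other S100 genes, 7 partners, the 2 partners and EF-hand genes of largest difference per direction, the top marker per list, and the 3 nearest genes of members with an SD of at least 0.5. Runx2, Bglap and Spp1 are not analysed here.

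The members' differences and the counts of called genes were recomputed with arrays quantile-normalized or centred, with low genes removed at either of 2 levels, with probe sets averaged, with eBayes trend and robust settings, with array weights, with other covariates, in only Rbfl/+ or only tibial tumours, and without each tumour in turn. The members' median was not recomputed with eBayes settings, array weights or Rb genotype as a covariate, and partners, other lists, likeness, neighbours and interactions have no alternatives.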

Additional observations from a re-analysis of the deposited data

Results flagged for a closer look

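Dixon's test for a tumour far from the rest of its model was applied to 49 named genes. Of 98 tests 7 passed its critical value, where chance gives about 1 in 20 for genes named without regard to their values. Some of the 49 were named for a large difference or, like Ppbp, Galnt13 and Mgst2, for likeness to a member. The chance rate therefore does not hold for the whole set. S100a13 in shRNA OS replicate 1 was 8.44, against 8.84 to 8.89 in the other 3 shRNA OS tumours. S100a8 in Cre:lox OS replicate 4 was 6.42, against 5.75 to 5.83, and S100a9 in shRNA OS replicate 2 was 6.56, against 6.36 to 6.38. Fgf1 in shRNA OS replicate 2 was 6.43, against 7.10 to 7.203, and Ppbp in shRNA OS replicate 3 was 7.27, against 7.73 to 7.78. Galnt13 in shRNA OS replicate 2 was 5.09, against 4.90 to 4.92, and Mgst2 in Cre:lox OS replicate 4 was 7.66, against 5.90 to 6.14. The flagged values of S100a9, Fgf1 and Galnt13 all came from shRNA OS replicate 2, whose array stood apart.

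The mean difference between Rb genotypes had opposite signs in the models for 7 of 8 members, all but S100a11 (0.39 in shRNA OS and 0.26 in Cre:lox OS). For 3 of the 7, every Rbfl/+ tumour lay on the same side of the Rb+/+ tumour within a model, and on opposite sides between the models. The shares of all genes with opposite signs or opposite sides were not counted. Both counts therefore describe these members only and do not set them apart from other genes. In shRNA OS the 3 Rbfl/+ tumours were below the Rb+/+ tumour for S100a4 (8.58, 8.17 and 8.87, against 9.20), S100a6 (8.61, 8.25 and 9.65, against 9.72) and S100a16 (8.66, 9.13 and 9.76, against 9.84). In Cre:lox OS the 3 Rbfl/+ tumours were above the Rb+/+ tumour for S100a4 (10.01, 10.64 and 10.04, against 9.61), S100a6 (9.99, 10.73 and 10.64, against 9.46) and S100a16 (9.64, 9.87 and 9.57, against 9.32). The effect in shRNA OS minus that in Cre:lox OS was -1.29 (SE 0.50) for S100a4, -1.87 (SE 0.74) for S100a6 and -1.02 (SE 0.55) for S100a16. Limma's interaction test over all genes, chosen after seeing the data, gave adjusted p of 0.510, 0.516 and 0.613. The Rb+/+ side rests on 1 tumour per model, which is assumed to vary like the rest, and that of shRNA OS is replicate 2, whose array stood apart.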

How the results depend on the processing

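No paired analysis was possible because the labels give no shared replicate number. Among all genes, the 4 called between the models became 21 with quantile normalization, 9 with arrays centred on their medians, 0 above the median level (1351 at an unadjusted p under 0.05), 19 with array weights, 13 with site as a covariate, 9 in Rbfl/+ and 2 in tibial tumours, and 0 to 42 without 1 tumour. The extreme of 42 came without shRNA OS replicate 1, and 0 came when Cre:lox OS replicate 3 or either of replicates 3 and 4 of the shRNA OS tumours was removed. Other removals gave 19 (Cre:lox OS replicate 1), 7 (shRNA OS replicate 2) and 1 (Cre:lox OS replicates 2 and 4). The cause was not tested. The members' median of -0.28 was -0.46 in tibial tumours, -0.16 without shRNA OS replicate 1 and -0.41 at most without another tumour. The S100b difference was 0.12 with array weights. Above the median level S100b was not tested. Between sites the count of 0 became 1 when either humerus tumour was removed (0 to 1), and between Rb genotypes it was 0 in every fit.

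Uncalled differences near 0 turned sign. Between sites S100a4 (0.21) was -0.17 with no covariate and -0.0803 in Rbfl/+ tumours, S100a6 (0.21) was -0.11, -0.26 and, with array weights, -0.14, and S100a13 (-0.05) was 0.0078 with quantile normalization. Without 1 tumour the site differences ran from -0.0074 to 0.53 for S100a4, -0.0910 to 0.96 for S100a6, -0.30 to 0.0851 for S100a11, -0.18 to 0.0424 for S100a13 and -0.26 to 0.24 for S100a16. By Rb genotype S100a6 (0.05) was -0.0858 with quantile normalization, -0.0024 with centred arrays and -0.0105 with array weights, S100a10 (-0.01) was 0.037 with array weights and 0.0231 with site as a covariate, and S100a13 (0.10) was -0.0573 with quantile normalization. Without 1 tumour the Rb differences ran from -0.0526 to 0.39 for S100a1, -0.67 to 0.62 for S100a4, -0.88 to 0.99 for S100a6, -0.16 to 0.14 for S100a10, -0.10 to 0.30 for S100a13, -0.65 to 0.38 for S100a16 and -0.0686 to 0.71 for S100b.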

Other observations

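Other EF-hand calcium-binding genes, a list that includes the reticulocalbins of the secretory pathway, were also compared. None of 29 measured passed limma's test between the models, where 0.0201% of all genes did. The genes named below were picked for their large differences. In shRNA OS 18 had a lower and 11 a higher mean (62.1% lower, against 48.1% of all genes), with a median difference of -0.13. The lowest were Smoc2, a secreted matrix protein (-1.21, SE 0.49), and Efhd2, a cytoskeletal calcium sensor (-0.82, SE 0.24, adjusted p = 0.307). The highest were Efhd1, a mitochondrial relative of Efhd2 (1.44, SE 0.83), and Rcn3, which assists collagen production (0.57, SE 0.20, adjusted p = 0.398). The 2 close relatives Efhd1 and Efhd2 thus had means on opposite sides, neither past the test.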
